A study of Mus musculus with 18 samples.

Results

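Mammary glands of wild-type (WT) mice collected at the endpoint of carcinogen treatment were compared with WT glands collected 2 weeks after the last carcinogen dose. The comparison holds 3 endpoint libraries and 3 libraries from 2 weeks, 6 of the 18 libraries of the series, picked by their labels alone. All 15482 genes that passed a filter on low counts, of 23337 gene symbols, entered the test. The question put to these libraries was how the gland of the same genotype differed between an early time after the carcinogen and the time when tumours had formed somewhere in the mouse.

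All 6 mice were C57BL/6Jx129 WT and had been given 6 weekly oral doses of 1 mg of DMBA (7,12-dimethylbenz[a]anthracene) in oil, starting at 12 to 14 weeks of age. The endpoint glands were free of tumour and came from mice killed because of a DMBA-induced tumour in any tissue. The glands from 2 weeks after the sixth dose came from mice for which no tumour is mentioned. Lymph nodes were removed at collection in both groups, per the protocols. The age at the endpoint, and the time since the last dose there, are absent from the labels, so later age, longer time since DMBA and the presence of a tumour cannot be told apart. Untreated WT glands, and Cip2a-/- glands at the endpoint and at 2 weeks, each with 3 libraries, are used below as points of comparison. The Cip2a-/- mice were of the same mixed background and lacked an inhibitor of the phosphatase PP2A.

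The mammary gland is a tree of epithelial ducts set in a fat pad, in which fibroblasts make a matrix of collagens, proteoglycans and adhesive glycoproteins, and proteases of the Adamts and Mmp families remodel it. DMBA is a polycyclic aromatic hydrocarbon that liver and mammary cells oxidise to epoxides that bind DNA, and damaged DNA activates p53 and its targets. In bulk tissue such as this, fewer cells of a type and less RNA per cell cannot be told apart.

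The depth of the 6 libraries was similar, from 17598320 to 22981594 counts at the endpoint and from 19939137 to 22328834 counts at 2 weeks. The libraries were less alike in make-up, and WT endpoint library 1 stood apart. On the first principal component of the 6 libraries, which held 56.0% of the variance, it lay at -154, while the other 5 lay between -16.0 and 69.8. It carried 5835 CPM (counts relative to library size, scaled by the TMM method) of Ucp1, the uncoupling protein of brown fat, and 6677 CPM of Ckm, the muscle creatine kinase. Its level of Epcam, the epithelial adhesion molecule, was 4.37 CPM, against 362 and 92.0 CPM in endpoint libraries 2 and 3 and 194, 136 and 176 CPM at 2 weeks. Results are therefore given with and without this library where it moved them. The column headers carry a number for each library that is higher in all 3 libraries from 2 weeks than in all 3 endpoint libraries. Its meaning is not stated, and whatever it marks cannot be told apart from the times compared. The labels do not say whether replicates came from separate litters or days. The p-values set each change against a spread between replicate libraries that was estimated over all 18 libraries. A chi-square per gene, which compares the counts of 2 replicate libraries with sampling noise, was unequal between the groups. Its values were 585, 392 and 291 for the pairs of WT endpoint libraries, and 48.5, 84.8 and 64.0 at 2 weeks. The standard errors and p-values below thus do not measure the spread of the endpoint group itself.

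**Figure D1:**
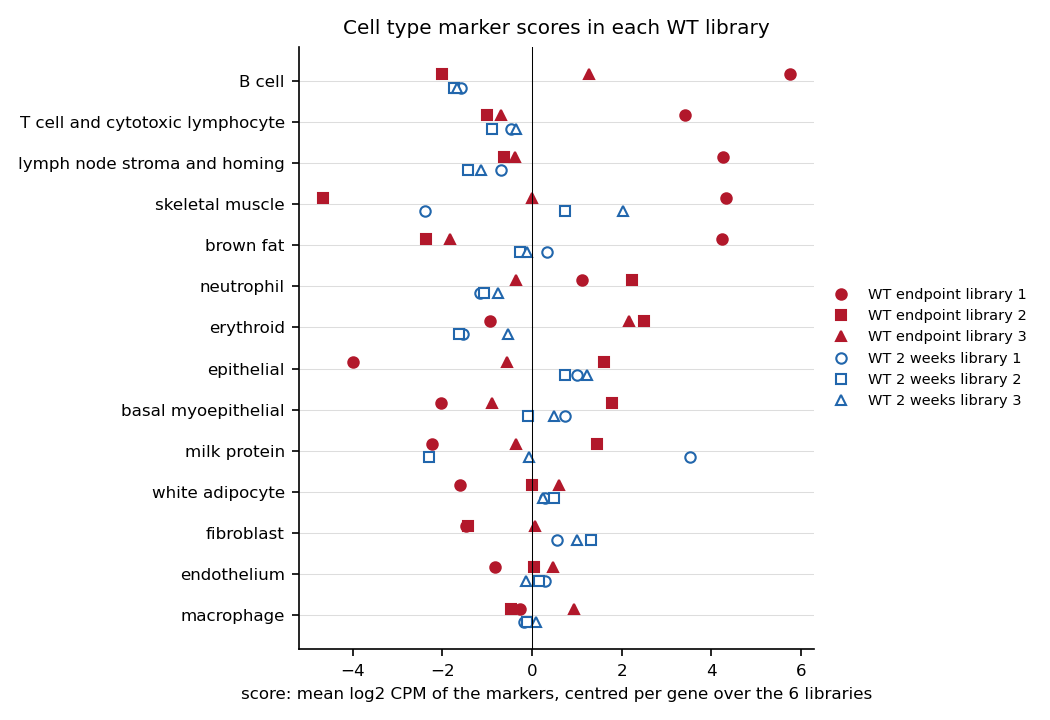
Marker scores of 14 cell types in the 3 WT endpoint libraries (filled red symbols) and the 3 WT 2-week libraries (open blue symbols). The horizontal axis is the mean log2 CPM of a list's markers, centred per gene over the 6 libraries. Endpoint library 1 (circle) has a score of 5.76 for B cells, 4.26 for lymph node stroma, 4.32 for muscle and 4.24 for brown fat, and -4.00 for epithelium.

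Of the 15482 genes, 48 (0.31%) passed the test between the endpoint and 2 weeks, which was edgeR's quasi-likelihood test on counts with a Benjamini-Hochberg adjusted p under 0.05. Of these, 40 (0.258%) fell and 8 (0.0517%) rose at the endpoint. These calls rest on the spread shared by all 18 libraries: edgeR called 0 genes when fitted to the 6 libraries alone, and 1 to 1320 when 1 library was left out. Among called genes with at least 5 CPM at 2 weeks, the largest decreases were those of Bicc1, Adamts5, Trpv1, Igsf10, Pdgfd, Has3, Wnt5a and Rgs5. The genes that rose included Rpl36, Rplp2 and Eif3f of the cytosolic translation machinery, and C1qbp and Mrps26 of mitochondria. For all 48, the 3 endpoint libraries and the 3 libraries from 2 weeks did not overlap, which was so for 12.5% of all genes in the higher direction and 13.2% in the lower. The calls used these same libraries, and lack of overlap was a condition for naming the largest changes, so it adds no support to them. At an unadjusted p under 0.05, 1974 genes were higher and 1500 lower. Of 15412 genes, DESeq2 called 861 higher and 700 lower. Of 15482 genes, limma-voom called 11 higher and 54 lower. The counts of list members given below are to be read beside these. Without endpoint library 1, 2 genes (0.0127%) were called, Abi3bp and Rgs5, and all 48 kept their direction. Over all genes tested the median log2 fold change was 0.08, and 55.5% of them were positive.

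Among secreted matrix proteins, Abi3bp had the smallest p of all genes. It encodes a matrix protein that binds integrins and restrains proliferation in several mesenchymal cells, and it lies at chr16:56477801-56690135 of the mm10 assembly. Abi3bp had 10.8, 7.93 and 12.4 CPM in the endpoint libraries, against 38.0, 54.6 and 38.2 CPM at 2 weeks. Each endpoint gland thus had less than any gland from 2 weeks. The log2 fold change was -2.07 ± 0.24 (SE, n = 3 each; edgeR adjusted p = 0.00717). Untreated WT glands had 32.7, 47.2 and 40.3 CPM, within or near the range at 2 weeks.

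Adamts5 encodes an aggrecanase, a secreted protease that cuts the proteoglycans aggrecan and versican. Its level was 16.9, 33.2 and 45.4 CPM at the endpoint and 141, 259 and 177 CPM at 2 weeks. Even the highest endpoint library was below the lowest library from 2 weeks, and the log2 fold change was -2.60 ± 0.44 (SE, n = 3 each; edgeR adjusted p = 0.0398). Aspn, or asporin, is a small leucine-rich proteoglycan that binds collagen and TGF-beta. It fell with 6.65, 9.60 and 9.67 CPM at the endpoint, against 29.6, 40.6 and 22.3 CPM at 2 weeks, a log2 fold change of -1.83 ± 0.34 (edgeR adjusted p = 0.0419). Has3, one of the synthases of hyaluronan, the large matrix polysaccharide, had 1.65, 1.28 and 1.01 CPM at the endpoint and 6.31, 9.25 and 4.46 CPM at 2 weeks, a log2 fold change of -2.34 ± 0.43 (edgeR adjusted p = 0.0419). Has3 was thus a low gene in all 6 glands. Igsf10, a large secreted protein with immunoglobulin domains, had 5.13, 5.38 and 6.00 CPM at the endpoint and 27.4, 34.0 and 25.7 CPM at 2 weeks, a log2 fold change of -2.40 ± 0.45 (edgeR adjusted p = 0.0446). Its endpoint values were the most even of this group. Aspn, Has3 and Igsf10 share exon sequence with a gene on the other strand (Cenpp, Chtf8 and Med12l among them), and since the labels do not state whether counting used the strand, their values are uncertain to that extent.

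Among ligands, Pdgfd, Wnt5a and Sema3c fell. Pdgfd encodes a platelet-derived growth factor that acts on fibroblasts and pericytes through the beta receptor. It had 1.65, 2.86 and 1.39 CPM at the endpoint, against 11.4, 11.2 and 8.37 CPM at 2 weeks (log2 fold change -2.38 ± 0.35, SE; edgeR adjusted p = 0.0205). Wnt5a encodes a Wnt ligand of the non-canonical kind that is known to restrain ductal growth in the mouse mammary gland. It had 8.62, 18.2 and 5.12 CPM at the endpoint and 54.6, 48.1 and 46.3 CPM at 2 weeks (log2 fold change -2.22 ± 0.40; edgeR adjusted p = 0.0419). The spread of Wnt5a among the endpoint glands was wide, yet the highest of them was below the lowest gland from 2 weeks. Sema3c, a secreted semaphorin that guides axons and endothelial cells, had 6.46, 16.3 and 11.1 CPM at the endpoint and 28.1, 52.7 and 45.2 CPM at 2 weeks (log2 fold change -1.89 ± 0.33; edgeR adjusted p = 0.0398).

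Rgs5, a regulator of G protein signalling used as a marker of pericytes, the mural cells of small vessels, had 29.2, 10.99 and 11.4 CPM at the endpoint and 86.3, 78.1 and 64.3 CPM at 2 weeks. The groups did not overlap, and the log2 fold change was -2.15 ± 0.36 (SE; edgeR adjusted p = 0.0398). Thbd, or thrombomodulin, the endothelial receptor that turns thrombin towards the anticoagulant protein C pathway, fell as well, with 37.7, 65.4 and 77.8 CPM at the endpoint and 123, 153 and 181 CPM at 2 weeks (log2 fold change -1.34 ± 0.25; edgeR adjusted p = 0.0428). It was the 1 called gene of the 15 endothelial markers, whose median log2 fold change was 0.00, or -0.23 to 0.15 with 1 library left out. Pecam1, the first gene of that list, overlapped between the groups, at 254, 379 and 598 CPM at the endpoint and 380.1, 319 and 297 CPM at 2 weeks.

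The other genes among the 12 named decreases were an RNA-binding protein gene, a channel and a peptidase. Bicc1, whose product binds RNA and is known from polycystic kidney disease, had 2.09, 2.63 and 2.02 CPM at the endpoint and 11.9, 15.6 and 15.6 CPM at 2 weeks (log2 fold change -2.67 ± 0.42; edgeR adjusted p = 0.0282). Trpv1, the capsaicin receptor of sensory neurons, had 1.27, 1.97 and 3.10 CPM at the endpoint and 9.10, 13.8 and 10.6 CPM at 2 weeks (log2 fold change -2.40 ± 0.45; edgeR adjusted p = 0.0419). Naalad2, a membrane peptidase, had 3.61, 1.74 and 3.54 CPM at the endpoint and 10.4, 11.7 and 10.2 CPM at 2 weeks (log2 fold change -1.87 ± 0.34; edgeR adjusted p = 0.0419). None of the 3 overlapped between the groups. The 13 markers of Schwann cells and nerve, given beside Trpv1, had a median log2 fold change of -0.13 over the 12 tested (0.12 without endpoint library 2 and -0.65 without endpoint library 3) and no member that passed (edgeR; 0 at an unadjusted p under 0.05, 0 by DESeq2 and 0 by limma-voom).

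The 28 other genes that fell ranged down to a fitted -4.95 on the log2 scale for Gm6936, a gene of few counts at 0.0634, 0.116 and 0 CPM in the endpoint libraries and 1.93, 1.77 and 2.94 CPM at 2 weeks. Named after their values were seen, several of them encode proteins of the matrix and its receptors. Ddr2, a receptor tyrosine kinase for fibrillar collagen, averaged 37.9 ± 12.4 CPM at the endpoint and 133 ± 23.7 CPM at 2 weeks (SD, n = 3 each). The laminin chain gene Lamb1 averaged 156 CPM at the endpoint and 360.1 CPM at 2 weeks, and Matn2, a matrilin of the pericellular matrix, 21.8 and 73.0 CPM in the same order. Vcl, or vinculin, which ties integrin adhesions to actin, averaged 119 CPM at the endpoint and 279 CPM at 2 weeks. Ddr2, Matn2 and Vcl also overlap exons on the other strand, as do 21 of the 48 called genes in all.

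**Figure D2:**
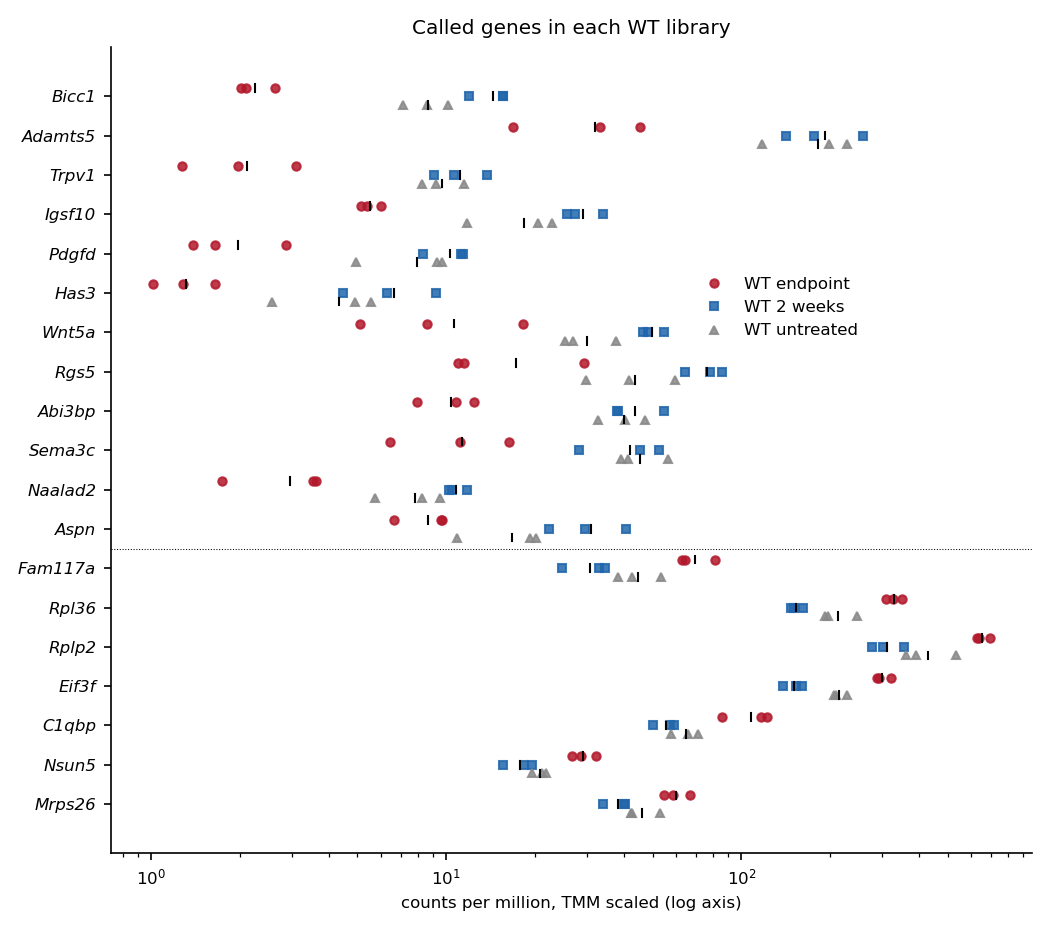
CPM on a log axis of the 12 called genes with the largest decrease (above the dotted line) and the 7 called genes with an increase and a mean of at least 5 CPM (below it), in each WT library. Red circles are the endpoint, blue squares are 2 weeks, grey triangles are untreated glands, and black ticks are group means. No red circle overlaps the blue squares of its gene, which was a condition for showing it. Most grey triangles lie nearer to the blue squares.

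The genes that rose did so by less. C1qbp, a mitochondrial matrix protein needed for translation inside mitochondria, lies at chr11:70977846-70983026. It had 122, 86.1 and 117 CPM at the endpoint, against 50.3, 57.4 and 59.1 CPM at 2 weeks. Every endpoint gland was higher, with a log2 fold change of 0.96 ± 0.14 (SE, n = 3 each; edgeR adjusted p = 0.0205). Mrps26, a protein of the small subunit of the mitochondrial ribosome, had 58.7, 54.7 and 67.1 CPM at the endpoint and 34.0, 40.2 and 40.3 CPM at 2 weeks (log2 fold change 0.66 ± 0.13; edgeR adjusted p = 0.0446). Phb2, a prohibitin of the inner mitochondrial membrane, had a value of 0.76 ± 0.15 on the same scale and did not pass (edgeR adjusted p = 0.0512). The 33 nuclear genes of oxidative phosphorylation had a median of 0.84, or 0.22 without endpoint library 1, and their groups overlapped for all 33.

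Eif3f, a subunit of the initiation factor that brings the small ribosomal subunit to mRNA, had 293, 287 and 321 CPM at the endpoint and 161, 154 and 138 CPM at 2 weeks. The log2 fold change was 0.99 ± 0.20 (edgeR adjusted p = 0.0498), close to the threshold. Nsun5, which methylates the large ribosomal RNA, had 28.6, 26.6 and 32.2 CPM at the endpoint and 18.3, 15.6 and 19.6 CPM at 2 weeks (log2 fold change 0.71 ± 0.14; edgeR adjusted p = 0.0485). Fam117a had 64.6, 63.0 and 81.5 CPM at the endpoint and 32.98, 34.5 and 24.7 CPM at 2 weeks (log2 fold change 1.18 ± 0.21; edgeR adjusted p = 0.0419), the largest rise among called genes with at least 5 CPM. Mif, Naa10, Pmf1 and Fbxl6 followed with values from 0.76 to 1.05 and did not pass (edgeR adjusted p = 0.0512 for each).

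The cytosolic ribosomal protein genes stood higher at the endpoint almost as a whole family. Of 81 members tested, 73 had all 3 endpoint libraries above all 3 libraries from 2 weeks, against 12.5% of all genes. Rplp2, a protein of the ribosomal stalk, had 639.9, 629 and 697 CPM at the endpoint and 276, 302 and 355 CPM at 2 weeks (log2 fold change 1.08 ± 0.20; edgeR adjusted p = 0.0419). Rpl36, of the large subunit, had 310.0, 349 and 327 CPM at the endpoint and 161, 147 and 150.3 CPM at 2 weeks (log2 fold change 1.10 ± 0.21; edgeR adjusted p = 0.0466). These were the 2 members called, and Rps6, the small subunit protein phosphorylated by the S6 kinases, had 356, 361 and 357 CPM at the endpoint and 197, 169 and 188 CPM at 2 weeks without passing (edgeR adjusted p = 0.0539). The 3 endpoint values of Rps6 lay close together.

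The median log2 fold change of the family was 0.83, against 0.08 for all genes, and 0.80 without endpoint library 1. The members that departed were mostly paralogs with a restricted expression: Rpl39l stood at -0.51, Rps27l, which is also a p53 target, at -0.29, and the muscle gene Rpl3l at 2.91, with overlap between the groups in all 3. Ribosomal protein genes took 3.81%, 4.32% and 3.41% of all counts in the endpoint libraries, against 2.37%, 2.00% and 2.39% at 2 weeks. Many of these genes have processed pseudogenes, and the labels do not state how reads matching several places were counted. Their transcripts are also short, with a median length of 637 bases, against 1481 bases over all genes.

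Transcript length moved with the comparison. The median log2 fold change was 0.26 among the shortest transcripts and -0.23 among the longest, when the genes were cut by length into 10 groups of equal size. The slope of a library's log2 CPM deviation per doubling of length was -0.081, -0.019 and -0.114 in the endpoint libraries, and 0.088, 0.068 and 0.058 at 2 weeks. The called genes followed the same order, with a median length of 2478 bases for those that fell and 588 bases for those that rose. With the length trend of each library removed, 8 genes were called: Abi3bp, C1qbp, Ddr2, Fam171b, Gm6936, Oaf, Pdgfd and Ttc28. All 48 genes kept their direction, the ribosomal protein median was then 0.69, and the collagen median described below was -1.41. The labels give no RNA integrity, and its part in this trend was not tested.

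**Figure D3:**
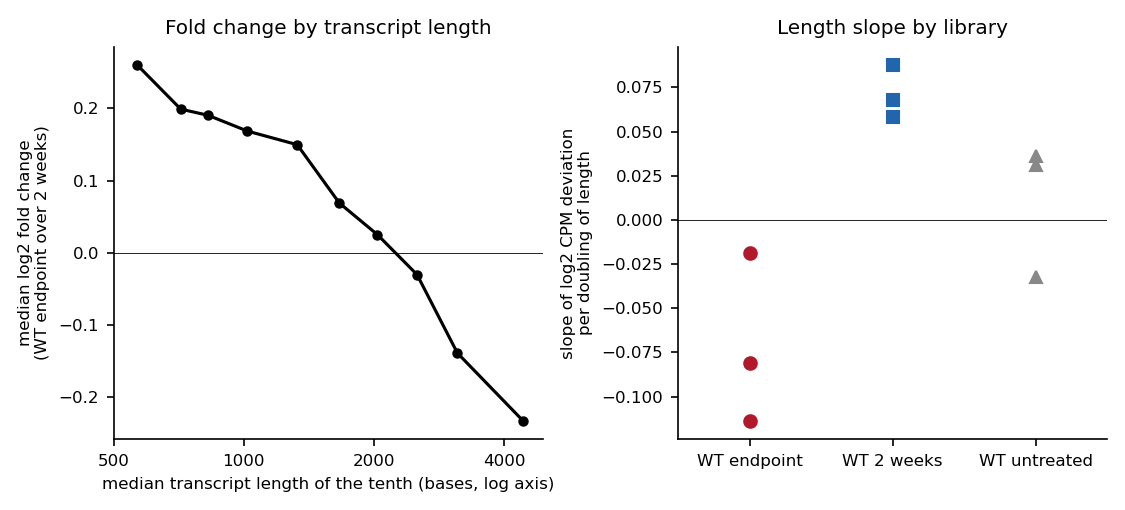
Left, the median log2 fold change of WT endpoint over 2 weeks in 10 groups of genes ordered by transcript length, on a log axis of length. Right, the slope of log2 CPM deviation per doubling of transcript length in each WT library. The median goes down along these groups to -0.23 in the longest, and the 3 endpoint libraries have negative slopes while the 3 libraries from 2 weeks have positive ones.

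Genes of ribosome assembly and of DNA replication also stood higher at the endpoint without any member passing the test. Of 23 Myc-linked genes of ribosome biogenesis, all 23 had positive values, 18 did not overlap between the groups, against 12.5% of all genes, and the median was 0.47, or 0.48 without endpoint library 1. Nolc1, a nucleolar chaperone, had 92.6, 94.3 and 95.5 CPM at the endpoint and 46.9, 45.9 and 71.8 CPM at 2 weeks (edgeR adjusted p = 0.0753). edgeR called 0 members, 12 were higher at an unadjusted p under 0.05, 7 were called higher by DESeq2 and 0 by limma-voom.

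Of 32 DNA replication genes controlled by E2F factors, 22 did not overlap and were higher at the endpoint, against 12.5% of all genes, and the median was 0.80. Mcm7, a subunit of the replicative helicase, had 60.0, 84.2 and 86.3 CPM at the endpoint and 42.5, 37.3 and 38.4 CPM at 2 weeks (log2 fold change 0.96 ± 0.26; edgeR adjusted p = 0.0815). Cdt1, which loads that helicase on origins, had 27.4, 17.3 and 14.3 CPM at the endpoint and 6.07, 6.65 and 6.31 CPM at 2 weeks (log2 fold change 1.63 ± 0.50; edgeR adjusted p = 0.100). For both genes the lowest endpoint gland exceeded the highest gland from 2 weeks. edgeR called 0 of the 32, with 15 higher at an unadjusted p under 0.05, 5 were called higher by DESeq2 and 0 by limma-voom. Without endpoint library 1, which is rich in lymphocyte markers, the median was 0.62.

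Of 33 genes of G2 phase and mitosis, 20 did not overlap and were higher, against 12.5% of all genes, and the median was 0.77, or 0.61 without endpoint library 1. Cdc20, the activator of the anaphase-promoting complex, had 15.4, 23.3 and 13.8 CPM at the endpoint and 7.61, 5.81 and 5.76 CPM at 2 weeks (log2 fold change 1.45 ± 0.64; edgeR adjusted p = 0.202). Cdca8, of the chromosomal passenger complex, had 12.6, 10.8 and 9.92 CPM at the endpoint and 3.66, 4.56 and 4.63 CPM at 2 weeks (edgeR adjusted p = 0.215). edgeR called 0 of the 33, with 2 higher at an unadjusted p under 0.05, as were 1974 of all 15482 genes, and 0 by DESeq2 or limma-voom. Untreated WT glands had 43.6, 48.1 and 46.4 CPM of Mcm7 and 7.55, 4.63 and 3.54 CPM of Cdc20, which is closer to the glands from 2 weeks.

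The promoters of Mcm7 and Cdc20 are shown as examples from these lists, whose members tended to be higher together. Each was picked for the smallest p among members that did not overlap and whose promoter held the motifs marked. They therefore do not show how common the motifs are. Each sequence is the 250 bases before the outermost annotated start, from RefSeq (GRCm38.p6), written 5′ to 3′ on the strand of the gene. The Mcm7 promoter lies at chr5:138171884-138172133 on the minus strand, and its capitals mark the match to the E2F motif (TTTGGCGC or TTTCCCGC, on either strand).
Mcm7: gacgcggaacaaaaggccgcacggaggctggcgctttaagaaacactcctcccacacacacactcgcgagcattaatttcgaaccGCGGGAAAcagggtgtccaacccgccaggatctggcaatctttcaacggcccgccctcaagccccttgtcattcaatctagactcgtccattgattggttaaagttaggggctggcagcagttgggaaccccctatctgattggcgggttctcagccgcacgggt
The Cdc20 promoter lies at chr4:118437344-118437593 on the minus strand. Its capitals mark 2 CCAAT boxes (CCAAT) and 1 cell cycle homology region (TTTGAA).
Cdc20: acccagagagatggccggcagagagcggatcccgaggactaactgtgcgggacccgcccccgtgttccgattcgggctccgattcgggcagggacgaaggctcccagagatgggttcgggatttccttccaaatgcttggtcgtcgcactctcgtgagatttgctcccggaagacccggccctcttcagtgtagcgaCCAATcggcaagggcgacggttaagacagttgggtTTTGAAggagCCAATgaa
The motifs were searched as exact letters on both strands, and the motifs marked do not overlap each other. An E2F match was found in 6 of 26 promoters of the replication list (23.1%) and in 2.43% of the 11235 promoters of all genes tested. A CCAAT box was found in 21 of 28 promoters of the mitosis list (75.0%) and in 35.9% of all, and the cell cycle homology region in 11 of 28 (39.3%) and in 10.9% of all. The E-box CACGTG was found in 4 of 60 ribosomal protein promoters (6.67%) and 1 of 18 ribosome biogenesis promoters (5.56%), and in 8.11% of all. A CCAAT box was found in 8 of 18 collagen promoters (44.4%) and 17 of 60 ribosomal protein promoters (28.3%). The replication list was drawn up as genes controlled by E2F factors, and all these shares follow from which genes a list holds. They say nothing of the changes in these libraries. These matches describe the letters of these windows and no binding was measured.

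Collagen genes formed the lower counterpart. Of 23 collagen genes tested, 21 had negative values and 14 did not overlap and were lower at the endpoint, against 13.2% of all genes. The median log2 fold change was -1.62, against 0.08 over all genes, and -1.36 without endpoint library 1. Over the other settings tried, the median lay between -1.87 and -1.12. No member passed: edgeR called 0, with 17 lower at an unadjusted p under 0.05, 13 were called lower by DESeq2 and 0 by limma-voom.

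Col5a2, a chain of the type V collagen that nucleates fibrils, had 42.7, 111 and 126 CPM at the endpoint and 318, 524 and 384 CPM at 2 weeks (log2 fold change -2.13 ± 0.45; edgeR adjusted p = 0.0512). Col6a3, of the microfibrillar type VI collagen, had 56.1, 103 and 127 CPM at the endpoint and 416, 554 and 599 CPM at 2 weeks (log2 fold change -2.45 ± 0.53; edgeR adjusted p = 0.0529). Col15a1, a basement membrane collagen, had 56.1, 52.4 and 104 CPM at the endpoint and 425, 714 and 529 CPM at 2 weeks (log2 fold change -2.97 ± 0.69; edgeR adjusted p = 0.0647). For these genes the highest endpoint gland was well below the lowest gland from 2 weeks. The major fibrillar chain gene Col3a1 had 162, 243 and 1088 CPM at the endpoint and 2229.8, 5225 and 3204 CPM at 2 weeks, with endpoint library 3 above the other two of its group. Col7a1 and Col12a1 were the members with positive values, at 0.38 and 0.03 on the log2 scale, and both overlapped.

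Fibroblast markers and the other matrix genes went with the collagens. All 13 fibroblast markers had negative values, 8 did not overlap, against 13.2% of all genes, and the median was -1.51. It was -1.45 without endpoint library 1 and -2.64 without endpoint library 3. The markers Col1a1, Col1a2 and Col3a1 also stand in the collagen list. Pdgfra, the growth factor receptor that marks fibroblasts and heads the list, had 24.8, 52.4 and 38.9 CPM at the endpoint and 110.4, 123 and 98.6 CPM at 2 weeks (log2 fold change -1.51 ± 0.39; edgeR adjusted p = 0.0753). Lum, or lumican, a proteoglycan that spaces collagen fibrils, had 18.3, 32.7 and 18.6 CPM at the endpoint and 119, 286 and 179 CPM at 2 weeks (log2 fold change -3.07 ± 0.64; edgeR adjusted p = 0.0512). edgeR called 0 of the 13 markers, with 9 lower at an unadjusted p under 0.05, 6 were called lower by DESeq2 and 0 by limma-voom. The fibroblast score, the mean centred log2 CPM of the markers, was -1.48, -1.43 and 0.05 at the endpoint and 0.55, 1.30 and 1.00 at 2 weeks. The part of the share of fibroblasts in the gland in these values was not tested.

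Of 26 matrix proteoglycans and adaptors, 23 had negative values, 10 did not overlap and were lower, against 13.2% of all genes, 1 (Aspn) was called, and the median was -1.09. It was -0.76 without endpoint library 1 and -1.86 without endpoint library 3. Loxl2, an enzyme that cross-links collagen, had 8.11, 26.8 and 42.3 CPM at the endpoint and 83.9, 107 and 84.0 CPM at 2 weeks (edgeR adjusted p = 0.0722). Of 22 matrix proteases and their inhibitors, 6 did not overlap and were lower, against 13.2% of all genes, 1 (Adamts5) was called, and the median was -0.46. It was -0.21 without endpoint library 1 and -0.996 without endpoint library 2. Adamts12 had 0.887, 4.02 and 4.23 CPM at the endpoint and 24.3, 29.3 and 20.6 CPM at 2 weeks (log2 fold change -3.01 ± 0.62; edgeR adjusted p = 0.0512). Mmp3, or stromelysin 1, had 5.77, 14.4 and 37.0 CPM at the endpoint and 71.5, 94.5 and 88.0 CPM at 2 weeks (edgeR adjusted p = 0.0864). Adamts12 in untreated glands, at 5.16, 9.49 and 12.7 CPM, lay between the groups.

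**Figure D4:**
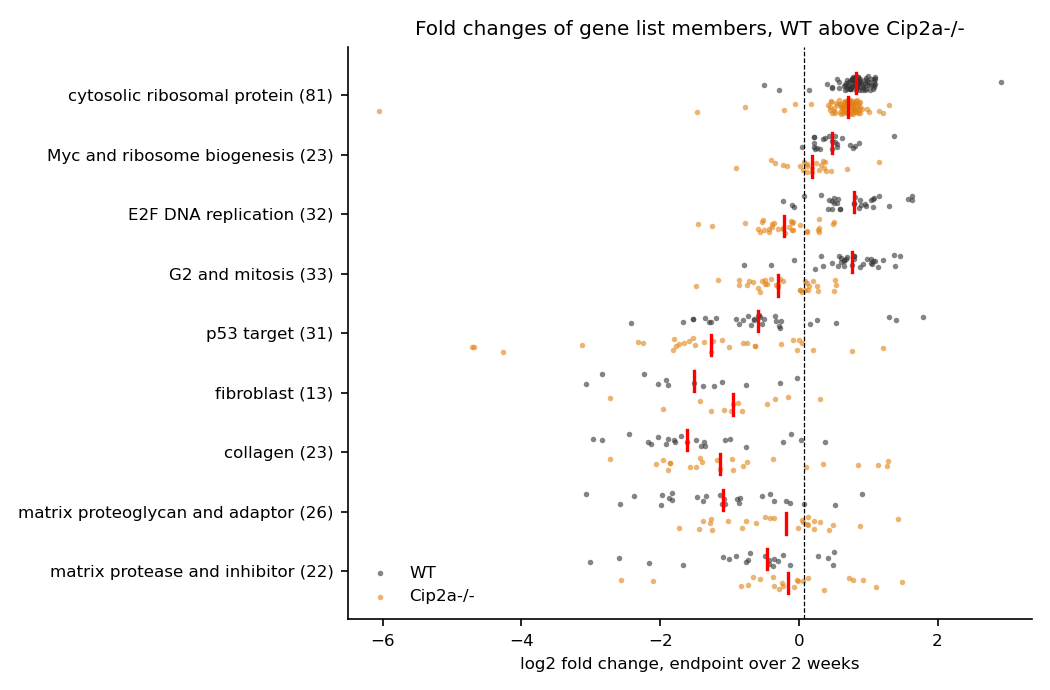
Log2 fold change of the endpoint over 2 weeks for each tested member of 9 gene lists, in WT (dark points, upper strip) and in Cip2a-/- glands (orange points, lower strip), with the number tested in brackets. Red bars are medians and the dashed line is the median of all genes in WT. Ribosomal protein genes lie to the right in both genotypes (medians 0.83 and 0.71) and collagens to the left (-1.62 and -1.14). The medians in WT and Cip2a-/- glands are 0.80 and -0.21 for the replication list and 0.77 and -0.30 for the mitosis list, and the difference between genotypes was not tested for a list.

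Genes of the response to DMBA were compared between the times, as both groups had been dosed. Ephx1, the microsomal epoxide hydrolase that acts on the epoxides of DMBA, fell. It had 82.8, 107 and 103 CPM at the endpoint and 174, 212 and 369 CPM at 2 weeks, without overlap (log2 fold change -1.37 ± 0.24, SE, n = 3 each; edgeR adjusted p = 0.0398). Untreated glands had 135, 148 and 182 CPM, above all endpoint glands and overlapping the glands from 2 weeks. Ephx1 was the 1 called member of 15 tested genes of the aryl hydrocarbon receptor and DMBA metabolism (median -0.29, or -0.65 without endpoint library 2 and -0.50 without library 3 from 2 weeks) and of 20 tested genes of the Nrf2 and glutathione response (median 0.06, or -0.13 to 0.13 with 1 library left out). Gclc, the catalytic subunit of the first enzyme of glutathione synthesis, had 34.5, 62.6 and 54.2 CPM at the endpoint and 120.1, 103 and 154 CPM at 2 weeks (edgeR adjusted p = 0.0788).

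p53 target genes had mostly lower values at the endpoint and none passed. Of 31 tested, 25 were negative and 9 did not overlap and were lower, against 13.2% of all genes, with a median of -0.58, or -0.59 without endpoint library 1 and -0.32 without library 3 from 2 weeks. Gdf15, a stress-induced cytokine, had 1.14, 1.70 and 4.17 CPM at the endpoint, 4.33, 8.32 and 25.0 CPM at 2 weeks, and 0.564, 0.614 and 0.388 CPM untreated (log2 fold change endpoint over 2 weeks -2.43 ± 0.66; edgeR adjusted p = 0.0813). Zmat3, an RNA-binding target of p53, had 18.9, 29.1 and 23.8 CPM at the endpoint, 33.4, 43.1 and 99.1 CPM at 2 weeks, and 20.6, 21.5 and 26.5 CPM untreated (edgeR adjusted p = 0.0808). Polk, a DNA polymerase that bypasses bulky adducts, had 7.67, 10.99 and 5.81 CPM at the endpoint and 16.4, 23.7 and 30.3 CPM at 2 weeks (edgeR adjusted p = 0.0668). In all 3 genes, library 3 of the glands from 2 weeks was the highest. By mean CPM, untreated glands were nearer to 2 weeks than to the endpoint for 6 of the 31, and the share over all genes was not computed. edgeR called 0 members, with 10 lower and 1 higher at an unadjusted p under 0.05, 3 were called lower by DESeq2 and 0 by limma-voom.

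A set of glucocorticoid targets and metallothioneins had high values in some endpoint glands. Fkbp5, a co-chaperone of the glucocorticoid receptor, had 37.6, 306 and 232 CPM at the endpoint and 36.1, 22.1 and 29.2 CPM at 2 weeks (log2 fold change 2.72 ± 0.70; edgeR adjusted p = 0.0753). The metallothionein gene Mt1 had 79.3, 118 and 241 CPM at the endpoint and 36.1, 39.1 and 33.2 CPM at 2 weeks (edgeR adjusted p = 0.0825). Endpoint libraries 2 and 3 were high for both genes, and endpoint library 1 was just above the glands from 2 weeks for Fkbp5. Over the 15 genes the median was 0.67, and 1.05 without endpoint library 1. edgeR called 0, with 4 higher and 1 lower at an unadjusted p under 0.05, 3 higher and 1 lower by DESeq2, and 0 by limma-voom. Klf9, also a target of this receptor, was the member with the other sign among those that did not overlap, at -1.21 ± 0.36.

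Blood cell genes were higher in some endpoint glands, with no gene called by edgeR. The neutrophil granule gene Ngp had 5.96, 53.7 and 0.569 CPM at the endpoint and 0.0482, 0.0465 and 0.126 CPM at 2 weeks (edgeR adjusted p = 0.0977), and S100a8, which heads the neutrophil list, had 9.95, 32.3 and 0.316 CPM at the endpoint and 2.31, 3.02 and 2.40 CPM at 2 weeks (edgeR adjusted p = 0.265). The erythroid haem synthesis gene Alas2 had 28.1, 224 and 108 CPM at the endpoint and 20.1, 18.1 and 21.2 CPM at 2 weeks (edgeR adjusted p = 0.188). Endpoint library 2 was the highest for all 3 genes, and endpoint library 3 was below the glands from 2 weeks for S100a8. The medians were 3.66 over 12 neutrophil genes and 3.44 over 4 erythroid genes, and 2.62 and 3.97 without endpoint library 1. Of the 12 symbols of the erythroid list, 4 were under the filter and 4 had no counts. A gene such as Ngp, at its level of 2 weeks, could pass the filter only through other libraries, which favours a rise. Fitted to the 6 libraries alone, the medians of the members that passed the filter there were 1.79 and 2.61. The neutrophil median was 1.66 by voom with sample quality weights. Of the 12 and the 4, 6 and 3 were higher at an unadjusted p under 0.05, as were 1974 of all 15482 genes. DESeq2 called 6 and 0 of them, against 861 of 15412 genes called higher, and limma-voom called none of them.

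The lymphoid, muscle and brown fat lists turned on endpoint library 1. The median log2 fold change was 7.03 for B cells, 3.27 for T cells, 5.30 for lymph node stroma, 2.20 for skeletal muscle, 1.99 for brown fat and 1.16 for MHC class II. Without that library these medians were 0.66, -0.45, 0.21, -1.45, -1.69 and -0.79. The muscle median was 3.58 without library 3 from 2 weeks. Ccl19, a chemokine of lymph node stroma, had 209 CPM in endpoint library 1, 1.28 and 1.39 CPM in the other endpoint libraries, and 0.626, 1.02 and 0.968 CPM at 2 weeks. Epithelial markers had a median of -0.66, which was -0.09, -2.63 and -0.29 without endpoint libraries 1, 2 and 3, and -0.41 without library 3 from 2 weeks.

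The Cip2a-/- glands gave the same times in other mice. Their libraries share the low-count filter and the estimate of spread with the WT test that chose the 48 genes. The length slope was -0.071, -0.025 and -0.005 in the Cip2a-/- endpoint libraries, and 0.108, 0.020 and 0.0009 at 2 weeks. The numbers in the column headers were again higher at 2 weeks than at the endpoint. A shared direction in the genotypes therefore cannot separate the times from whatever those numbers mark. The part of the length trend in it was not tested. Cip2a, listed under the older symbol C330027C09Rik, had 3.23, 4.88 and 1.58 CPM at the WT endpoint and 3.13, 3.30 and 2.82 CPM at 2 weeks in WT, and 0 CPM in all 6 Cip2a-/- libraries used here. It did not pass between the times in WT (log2 fold change 0.07 ± 0.53; edgeR adjusted p = 0.946).

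Of the 40 genes that fell in WT, 39 had negative values in Cip2a-/- glands, as did 52.5% of all genes, and 34 did not overlap and were lower, as was so for 11.4% of all genes. All 8 genes that rose in WT had positive values in Cip2a-/- glands and did not overlap there, as was so for 12.5% of all genes. The median log2 fold changes were -1.65 in WT and -1.003 in Cip2a-/- glands for the genes that fell, and 1.03 in WT and 0.76 in Cip2a-/- glands for those that rose. The values were larger in WT for 45 of the 48, which were chosen on the WT libraries. No gene passed over all genes in Cip2a-/- glands by edgeR (smallest adjusted p = 0.0542), where 3657 had an unadjusted p under 0.05. By DESeq2 1800 were called, and by limma-voom 1. Without Cip2a-/- endpoint library 1 edgeR called 552 genes, without Cip2a-/- library 2 from 2 weeks 1, and with the length trend removed 5.

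Abi3bp in Cip2a-/- glands had 19.3, 18.1 and 21.7 CPM at the endpoint and 37.8, 35.9 and 44.3 CPM at 2 weeks, a log2 fold change of -0.997 ± 0.23. Adamts5 had 102, 70.5 and 50.3 CPM at the Cip2a-/- endpoint and 165, 354 and 436 CPM at 2 weeks in Cip2a-/- glands, and Rgs5 had 17.05, 19.8 and 23.6 CPM and 61.6, 60.1 and 56.5 CPM in the same order. Both genes thus kept their groups apart in the second genotype. Wnt5a had 38.6, 23.3 and 17.1 CPM at the endpoint and 44.5, 37.1 and 34.9 CPM at 2 weeks in Cip2a-/- glands, which overlapped.

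**Figure D5:**
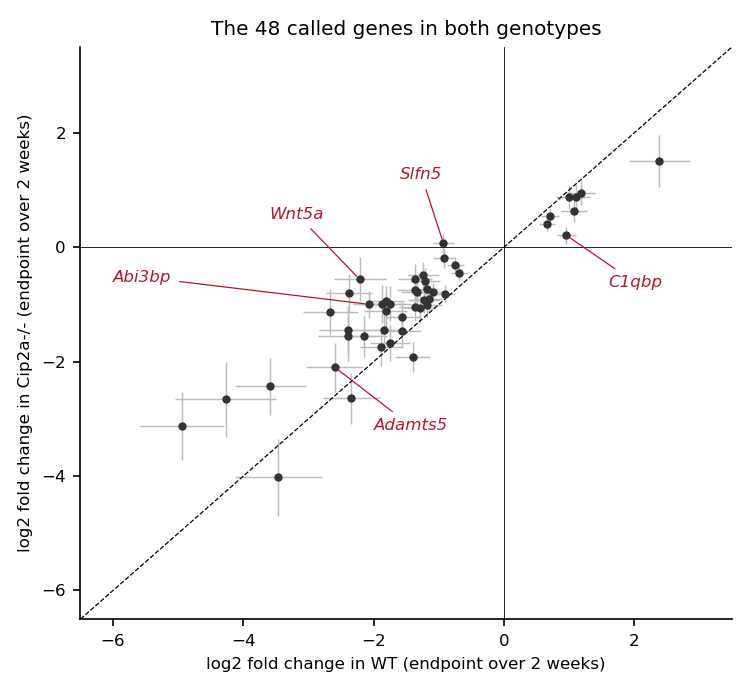
Log2 fold change of the endpoint over 2 weeks in WT (horizontal axis) and Cip2a-/- glands (vertical axis) for the 48 genes called in WT, with standard errors as grey bars. The dashed line marks equal values. Of the 48 points, 47 have the same sign in both genotypes, and Slfn5 is the one with a negative value in WT and a value of 0.07 in Cip2a-/- glands.

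The difference between the genotypes was itself tested as an interaction. For it edgeR called 0 genes (smallest adjusted p = 0.476). The unadjusted p was under 0.05 for 1599, and 120 were called by DESeq2 and 0 by limma-voom. Of the 48 genes, 11 had an unadjusted interaction p under 0.05, against 10.3% of all genes. The interaction holds the WT change on which the 48 were chosen, so this count cannot show a difference between the genotypes. The 4 genes with the smallest p were Rgl3, Ifi202b, Trim25 and Slfn5. Slfn5, a Schlafen family gene induced by interferon, fell in WT, with 96.1, 126 and 101 CPM at the endpoint and 236, 205 and 174 CPM at 2 weeks (log2 fold change -0.93 ± 0.17; edgeR adjusted p = 0.0419). In Cip2a-/- glands it had 134, 174 and 164 CPM at the endpoint and 132, 156 and 162 CPM at 2 weeks. The groups overlapped there, and the interaction of -0.999 ± 0.23 did not pass (edgeR adjusted p = 0.476).

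Rgl3, a guanine exchange factor for Ral, had 24.5, 34.6 and 26.4 CPM at the WT endpoint and 33.5, 31.8 and 26.2 CPM at 2 weeks in WT. In Cip2a-/- glands it had 38.7, 37.8 and 35.8 CPM at the endpoint and 14.5, 19.5 and 16.8 CPM at 2 weeks. The WT groups overlapped and the Cip2a-/- groups did not, and the interaction of -1.24 ± 0.27 did not pass (edgeR adjusted p = 0.476). Trim25, a ubiquitin ligase of antiviral signalling, had an interaction of -1.27 ± 0.28 (edgeR adjusted p = 0.476).

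Lists set side by side differed in how alike the genotypes were, and this was not tested as a list. The ribosomal protein median was 0.83 in WT and 0.71 in Cip2a-/- glands, and that of the collagens -1.62 in WT and -1.14 in Cip2a-/- glands. Fewer members kept the groups apart in Cip2a-/- glands. Of 81 ribosomal protein genes, 73 were higher and did not overlap in WT and 32 in Cip2a-/- glands, against 12.5% of all genes in each. Of 23 collagens, 14 were lower and did not overlap in WT, against 13.2% of all genes. In Cip2a-/- glands this was so for 10 of them, against 11.4%. The median of p53 targets was -0.58 in WT and -1.27 in Cip2a-/- glands. Of these 31 genes, 9 were lower and did not overlap in WT, against 13.2% of all genes, and 17 in Cip2a-/- glands, against 11.4%. The replication list had 0.80 in WT and -0.21 in Cip2a-/- glands, and the mitosis list 0.77 in WT and -0.30 in Cip2a-/- glands. Epithelial markers had -0.66 in WT and 1.32 in Cip2a-/- glands, beside a low epithelial score in WT endpoint library 1.

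Untreated WT glands placed most of the 48 genes nearer to the level at 2 weeks. This was so for 42 of the 48 mean levels (log2 CPM), 36 of the 40 that fell and 6 of the 8 that rose. The share over all genes was not computed, so this is not shown to be particular to the 48. For the 12 named decreases the log2 fold change of the endpoint over untreated glands ran from -2.51 for Adamts5 to -0.95 for Aspn. Among the 48, the edgeR test of the endpoint over untreated glands called 4, Abi3bp, Gm6936, Matn2 and Thbd, and that of 2 weeks over untreated glands called 0. These comparisons share their endpoint or 2-week libraries with the one described here.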

How the data were processed

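RNA of WT mammary glands was sequenced from poly(A) libraries. The values deposited by the authors are whole-number counts per gene symbol with 1 column per library. The submitters' processing notes name STAR 2.5.2b, Subread 1.5.1 and the mm10 build. No label gives the annotation, the strand setting or the handling of reads that match several places. Everything else was computed here: genes were kept with edgeR 4.0.16 (R 4.3.3) filterByExpr (minimum count 10, minimum total 15), scaled by TMM, and fitted by quasi-likelihood to all 18 libraries with 1 term per group, so that groups share 1 estimate of spread. Log2 CPM used a prior count of 2. Alternatives were limma 3.58.1 (voom), DESeq2 1.42.0, other scalings and filters, left-out libraries, a replicate block and a length correction. Total counts ran from 17598320 to 22981594 over the 6 libraries, and no 2 libraries of a group agreed within sampling noise.

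The rule for named genes took up to 12 called genes per direction by size of change, with a mean of at least 5 CPM in the higher group, a gene name and no overlap, filled up by smallest p, then the 4 members of each described list with the smallest p, the first marker of each cell type, Cip2a and the 4 smallest interaction p. From these, the text gives examples. Members and lists were chosen with earlier results of these data known. Lists, 50 in number, are described by counts and medians, and list symbols without counts or under the filter (such as Rpl26) were not analysed here. Coordinates are from RefSeq on GRCm38, the assembly also called mm10.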

Additional observations from a re-analysis of the deposited data

Results flagged for a closer look

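Ifi202b belongs to the Ifi200 genes, which interferon induces, and its fitted changes had opposite signs in the 2 genotypes. Neither change passed. The log2 fold change was -1.10 ± 1.04 in WT (edgeR adjusted p = 0.539) and 7.07 ± 1.47 in Cip2a-/- glands (edgeR adjusted p = 0.0586). WT glands had 2.53, 7.24 and 8.22 CPM at the endpoint and 15.9, 9.44 and 13.3 CPM at 2 weeks, with every endpoint gland lower. Cip2a-/- glands had 16.4, 5.21 and 6.80 CPM at the endpoint and 0, 0.169 and 0 CPM at 2 weeks, with every endpoint gland higher. The fitted interaction, WT minus Cip2a-/-, was -8.17 on the log2 scale and did not pass (edgeR adjusted p = 0.476). It rests on a group with 0 reads in 2 libraries and is no bound. Ifi202b has close paralogs, and its counts are uncertain to that extent.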

How the results depend on the processing

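The count of called genes depended on the processing more than the values did. All 48 genes kept their direction under every alternative that tested them. Against 48, edgeR called 15 genes with no low-count filter, 92 with a mean of at least 1 CPM, and 0 when fitted to the 6 contrasted libraries alone (2467 at an unadjusted p under 0.05, where fewer samples carry the estimate of spread). DESeq2 called 1561, voom 65 and voom with sample quality weights 312. The cause of the differences between tools was not tested. Leaving out 1 library gave 1 to 1320 genes: 2 without WT endpoint library 1 (Abi3bp and Rgs5), 1320 without endpoint library 2, 8 without endpoint library 3, and 12, 2 and 1 without libraries 1, 2 and 3 from 2 weeks. The length correction, chosen after seeing the data, left 8, and the same without endpoint library 1 left 1 (Rgs5). The smallest p, that of Abi3bp, passed in 15 of 17 alternatives. With the replicate number as a block 75 genes were called, 44 of them shared, and 7 in Cip2a-/- glands against 0. The labels do not say that equal numbers mark paired samples. Same-numbered WT libraries, centred within their group, had correlations of -0.29, -0.22 and 0.00. So few pairs cannot exclude a shared litter or day. For the interaction, DESeq2 called 120 genes, leaving out 1 library gave 0 to 1 (1 without Cip2a-/- library 2 from 2 weeks), and the other alternatives gave 0. Genes of few counts, such as Gm6936, have fitted values that depend on the prior count.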
